A study of Homo sapiens with 25 samples.

Results

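Integrins are cell surface receptors built from an α and a β chain. They hold epithelial cells to the matrix, and on the inside they connect through adaptor proteins to actin or, for ITGB4, to keratin filaments at hemidesmosomes. The 8 integrin mRNAs ITGA2, ITGA3, ITGA5, ITGA6, ITGAV, ITGB1, ITGB4 and ITGB5 were chosen by name from the 63086 annotated genes, of which 20044 are protein-coding. All 8 were among the 8734 protein-coding genes that passed the filter on low levels. ITGB1 pairs with each of ITGA2, ITGA3, ITGA5, ITGA6 and ITGAV, and the choice of α chain sets the ligand, with ITGA2 binding collagen, ITGA3 and ITGA6 laminin, ITGA5 fibronectin, and ITGAV fibronectin, vitronectin and latent TGFβ. ITGB4 pairs with ITGA6 alone and ITGB5 with ITGAV.

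The levels come from RNA immunoprecipitation sequencing (RIP-seq), in which a tagged RNA-binding protein is pulled out of a lysate and the RNA that comes down with it is sequenced. The bait was IGF2BP1, an RNA-binding protein that recognises mRNA through its KH and RRM domains, fused to the red fluorescent protein mCherry. It was either wild-type (WT), carried the phosphomimetic change S181E or Y396E, or was the RQ mutant, in which arginines of the first linker were replaced by glutamine. All 4 lines were HCT116 cells, a human colorectal carcinoma line, with knockouts of IGF2BP2 and IGF2BP3 and the Tet-OsTIR1-PURO transgene, kept as populations sorted for a narrow range of mCherry. Cells received PBS (control) or 500 µM sodium arsenite, an oxidative stressor, for 2 h. Each line had 3 libraries per treatment, except 2 for RQ in arsenite, which makes 23. Parental HCT116 cells without the fusion protein gave 1 library per treatment, which measures RNA that comes down without the bait. The paper describes these control cells as not engineered, so they can also differ from the 4 lines in the IGF2BP2 and IGF2BP3 knockouts. In ratios to parental that difference cannot be told apart from the lack of the bait.

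The mCherry libraries held between 22246381 and 60273548 counts, the parental arsenite library 18942497 and the parental control library 1238013. Levels are given as CPM, counts scaled to the size of the library after TMM normalization. In WT libraries the epithelial markers KRT8, KRT18, KRT19, EPCAM, CDH1 and CDX2 were all present, while the markers of blood, vessel and stromal cells PTPRC, CDH5, PECAM1 and PDGFRB did not exceed 0.752 CPM. Of the remaining markers of that kind, DES reached 3.59 CPM, and COL1A1 reached 5.83 CPM in WT control and 11.9 CPM in WT arsenite. No parental read fell on the bait mRNA IGF2BP1, which stood at 66.4 ± 4.82 CPM in WT control (SD, n = 3). Against WT it was higher in Y396E, by 0.50 in control and 0.41 in arsenite on the log2 scale (edgeR adjusted p = 0.0027 and 0.010), and in RQ, by 0.74 and 1.02 (adjusted p = 0.00050 and 9.5e-05). In S181E the differences were 0.01 and 0.04, neither of them called. With arsenite the bait mRNA was lower than in control in all 4 lines, with log2 fold changes of -0.74 in WT, -0.70 in S181E, -0.83 in Y396E and -0.47 in RQ (edgeR adjusted p = 8.2e-06, 1.5e-05, 1.5e-06 and 0.0035). These are levels of IGF2BP1 mRNA in the RIP and not of the bait protein. The paper sorted the lines for comparable expression of the protein and shows a western blot of them. The part of the amount of bait in the differences between mutants and WT, or between arsenite and control, was not tested. WT control replicate 3 differed more than 2-fold from the mean of the other WT control libraries in 4.53% of tested genes, the highest share of all mCherry libraries. RQ control replicate 3 came next with 3.80%. A RIP level rises with the amount of an mRNA in the lysate as well as with the share of it that is bound. Total RNA was not analysed here, so the 2 cannot be told apart at any of the values that follow.

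IGF2BP1 is known for binding the zipcode of ACTB mRNA, in which CGGAC is followed after a spacer by ACA. To show how the integrin mRNAs compare with that known target, the canonical transcripts were searched on the sense strand for CGGAC, a spacer of 10 to 22 bases, and ACA. Among the members ITGAV and ITGB1 each held 1 such stretch, and the other 6 held none. The letters occurred in 19.6% of the transcripts of tested genes, and in 25.6% and 19.0% of transcripts within 25% of the length of ITGAV and ITGB1. Capitals mark the CGGAC and ACA letters, and all sequences are of the hg38 build.
ACTB, 3′ UTR, exon 6, chr7:5527722-5527746, minus strand: CGGACtatgacttagttgcgttACA
ITGAV, coding sequence, exon 7, chr2:186636171-186636198, plus strand: CGGACtgcacaagctatttttgatgACA
ITGB1, across exons 1 and 2 into the start of the coding sequence, chr10 from 32958163 to 32958145 and from 32935558 to 32935548, minus strand: CGGACgccgcgcggaaaagatgaatttACA

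The genes lie apart on hg38. ITGB4 (chr17:75721328-75757818) and ITGA3 (chr17:50056110-50090481) are on chromosome 17, ITGA6 (chr2:172234216-172506459) and ITGAV (chr2:186590010-186680901) on chromosome 2, all on the plus strand, and ITGA2 (chr5:52989352-53094779, plus strand) on chromosome 5. ITGA5 (chr12:54395261-54419266), ITGB1 (chr10:32887273-32958280) and ITGB5 (chr3:124761948-124887365) are on the minus strand.

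The members fall into GC-rich and GC-poor transcripts. ITGB4 (63.6% GC), ITGA3 (60.9%), ITGA5 (58.0%) and ITGB5 (54.6%) lay above the median of 48.2% over tested genes. ITGA6 (42.5%), ITGA2 (40.1%), ITGB1 (39.5%) and ITGAV (38.3%) lay below it. The tetramer GGAC, which CGGAC contains, occurred 9.16 times per kb in the 5896 bases of the ITGB4 transcript, more densely than in 97.9% of tested genes. It occurred 7.06 times per kb in ITGA5 and 6.55 in ITGA3, against 1.99 in ITGAV and 2.24 in ITGA6, with a median of 3.55 over tested genes.

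Per kilobase of annotated exon, ITGB4 was the most abundant integrin mRNA in the WT RIP. The annotated exons of ITGB1 cover 10366 bases, but its canonical transcript has 3735. Per kb of transcript the ITGB1 values below would be higher, so its place in the order depends on the length used. In control ITGB4 stood at 45.4 ± 2.71 CPM per kb (SD, n = 3), followed by ITGA3 at 39.7 ± 1.93, and the libraries of these 2 did not overlap. ITGB1 (13.7), ITGA6 (12.6), ITGB5 (9.15), ITGA5 (6.59), ITGA2 (5.18) and ITGAV (4.95) followed, each overlapping the next in that order. In arsenite ITGB4 reached 155.8 ± 8.15 CPM per kb (SD, n = 3) and ITGA3 90.1 ± 3.64. ITGA6 (25.0) then stood above ITGB1 (19.6), with ITGA5 (17.8) overlapping ITGB1, ITGB5 (13.96) apart from both its neighbours in the order, and ITGA2 (6.30) overlapping ITGAV (6.06). Of the 18 other integrin genes, only ITGAE passed the filter, with at most 25.6 CPM in any mCherry library, and ITGB8 reached 14.2 CPM. ITGA4 had no count in any mCherry library.

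**Figure D1:**
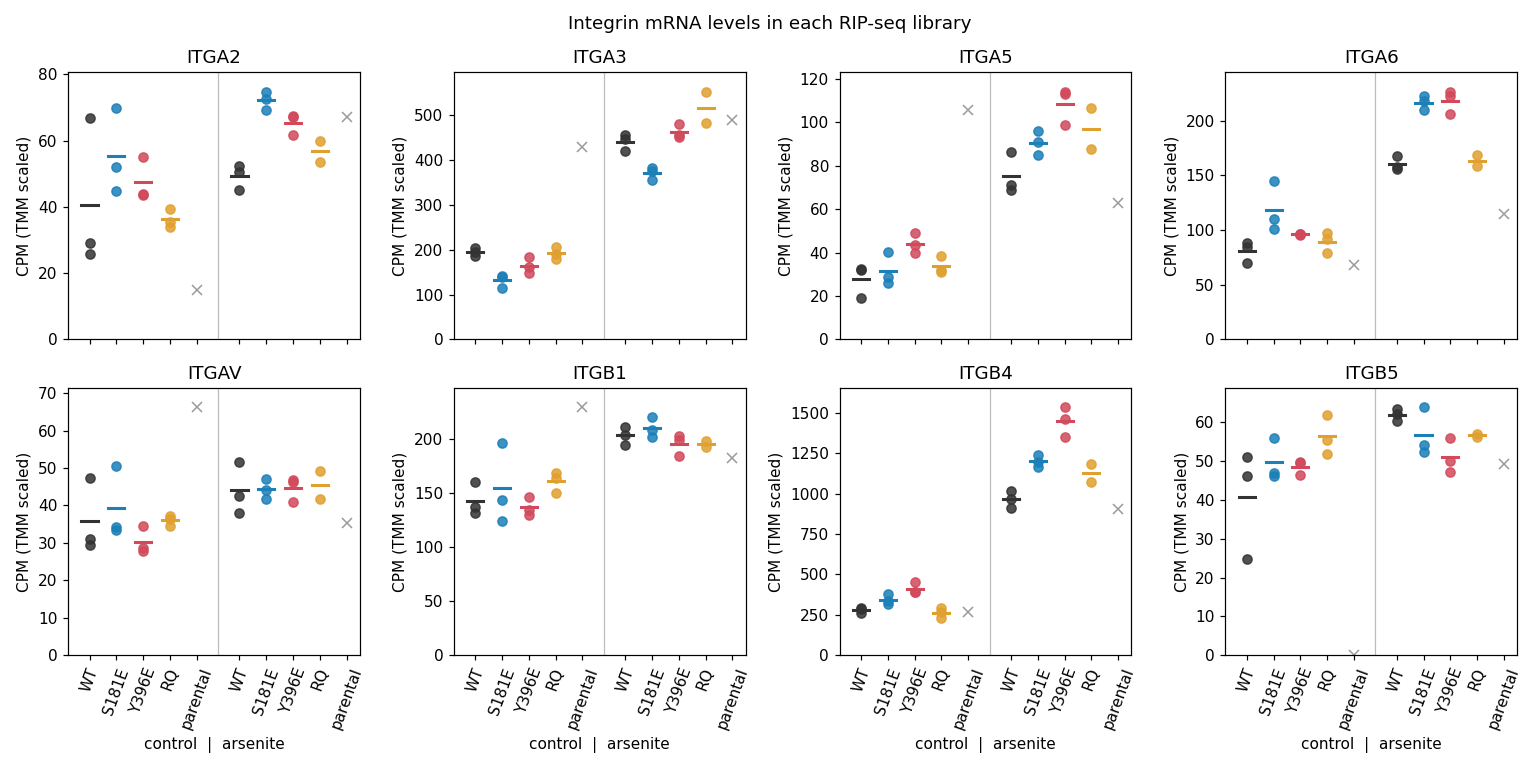
The level of each integrin mRNA (vertical axis, CPM after TMM scaling, from 0) in every library, with control groups to the left and arsenite groups to the right of the line in each panel. Dots are mCherry-IGF2BP1 libraries, bars group means and crosses the single parental libraries. ITGB4, ITGA3, ITGA5 and ITGA6 stood higher in arsenite in all 4 lines.

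The first question was whether the integrin mRNAs stood above the background of the parental RIP. In control only ITGB5 did so by at least 4-fold, the threshold of the study, in any of the lines. No parental control read fell on ITGB5, and against a floor of 3 counts (2.02 CPM) its WT mean of 40.6 CPM was 20.1-fold higher. Against the 95% upper limit of a count of 0 (2.49 CPM) it was 16.3-fold higher. The parental ITGA2 level of 14.8 CPM rested on 22 counts, and the WT mean was 2.74 times as high, with a 95% counting interval from 1.81 to 4.37. The members that pair with ITGB1 otherwise stood below the parental level or close to it in WT. The ratio was 0.453 for ITGA3, 0.264 for ITGA5, 0.543 for ITGAV, 1.18 for ITGA6 and 0.622 for ITGB1 itself. ITGB4 was at 1.04. Of all tested genes 49.0% reached 4-fold in WT control, but 3572 of the 8734 had no parental read.

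In arsenite, where the parental library was deeper, no integrin mRNA reached 2-fold over parental in any line. The WT ratios lay between 0.736 (ITGA2) and 1.39 (ITGA6), against a median of 1.14 over tested genes, of which 9.18% reached 4-fold. ITGB5, whose parental count was 0 in control, had 1138 counts (49.2 CPM) in the parental arsenite library and a ratio of 1.26. Among the mutants ITGA6 reached 1.88 in S181E and 1.90 in Y396E, ITGA5 1.73 in Y396E and ITGB4 1.60 in Y396E. The intervals cover counting error only, since each treatment had 1 parental library. The scale matters here, because on total counts in place of TMM the WT ratios in arsenite fell between 0.447 and 0.846, with all 8 members below 1. In control ITGA2 was then at 1.16, ITGA6 at 0.510 and ITGB4 at 0.447. ACTB, the known target, stood at 1863 ± 62.7 CPM in WT arsenite (SD, n = 3) and at 3084 CPM in the parental arsenite library.

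**Figure D2:**
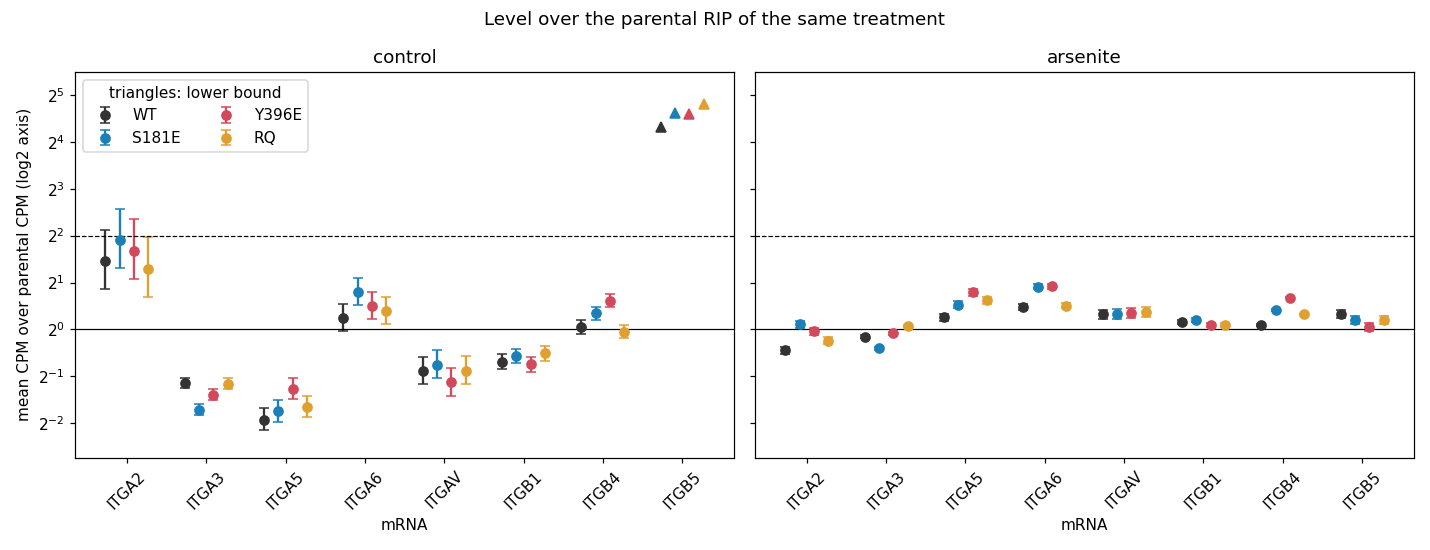
Mean level of each integrin mRNA over the parental RIP of the same treatment (vertical axis, ratio of CPM, log2 axis), by line. Bars are 95% counting intervals of the parental count, triangles are lower bounds for ITGB5, and the dashed line marks 4-fold. In arsenite all ratios lie below 2.

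The next comparison asked how the RIP changed with arsenite within each line. All log2 fold changes are from edgeR's quasi-likelihood test, with p-values adjusted over all 8734 genes. Called means that the adjusted p was under 0.05 and that the level differed by over 20%. ITGB4, the hemidesmosome chain, rose most among the members in all 4 lines. In WT it was 294, 262 and 286 CPM in control and 964, 913 and 1014 CPM in arsenite. In RQ it was 266, 229 and 292 CPM in control and 1071 and 1185 CPM in arsenite. No arsenite library came near a control library. The log2 fold change was 1.77 (standard error 0.10, adjusted p = 1.1e-12) in WT, 1.78 in S181E, 1.81 in Y396E and 2.10 in RQ. ITGB4 made up 32.2 to 34.5% of the summed CPM of the 8 members in WT control and 46.3 to 49.3% in WT arsenite.

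The laminin receptor chains rose as well. ITGA3 went from 204, 185 and 194 CPM to 421, 446 and 455 CPM in WT, a log2 fold change of 1.17 (standard error 0.10, adjusted p = 4.7e-10). The same change was 1.47 in S181E, 1.498 in Y396E and 1.42 in RQ. ITGA6, which pairs with both β chains, went from 84.6, 69.8 and 87.8 CPM to 158, 168 and 156 CPM in WT, a log2 fold change of 0.98 (standard error 0.12, adjusted p = 1.4e-07). It rose by 0.84 in S181E, 1.19 in Y396E and 0.87 in RQ on the log2 scale.

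The fibronectin receptor chain ITGA5 went from 32.2, 32.6 and 19.3 CPM to 71.0, 86.3 and 69.1 CPM in WT, with a log2 fold change of 1.41 (standard error 0.18, adjusted p = 2.3e-07). Its change was 1.49 in S181E, 1.31 in Y396E and 1.51 in RQ. All arsenite libraries stood above all control libraries of the same line. The common β chain ITGB1 changed less, by 0.50 in WT (standard error 0.12, adjusted p = 0.00086), 0.42 in S181E and 0.52 in Y396E. In RQ its log2 fold change of 0.28 was not called (adjusted p = 0.072). In a parental-level TMM, taken over the 3572 genes no higher on average than in the parental arsenite RIP, the ITGB1 changes were 0.12 in WT, 0.09 in Y396E and -0.02 in S181E, and none was called. That set was picked on an arsenite library, which leans the scale towards lower arsenite changes. It includes ITGB1 itself, as well as ITGA2, ITGA3, ITGA5 and ITGB4. Calls lost on this scale cannot be told apart from an effect of that choice.

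The collagen and vitronectin receptor chains ITGA2, ITGAV and ITGB5 were each called in 1 line. ITGA2 was called in RQ alone, at 39.2, 35.6 and 33.9 CPM in control and 59.8 and 53.7 CPM in arsenite, a log2 fold change of 0.64 (standard error 0.25, adjusted p = 0.027). That call was lost when any of RQ control replicates 2 and 3 or RQ arsenite replicates 1 and 2 was left out. In WT control ITGA2 stood at 25.9, 29.1 and 67.0 CPM, with replicate 3 above all WT arsenite libraries (50.5, 45.2 and 52.5 CPM). The WT log2 fold change was 0.28 (adjusted p = 0.28), and without WT control replicate 3 it was 0.84 and called. ITGAV was called in Y396E alone, with 28.6, 34.5 and 27.9 CPM in control, 46.9, 46.3 and 41.0 CPM in arsenite and a log2 fold change of 0.57 (standard error 0.17, adjusted p = 0.0059). In WT its log2 fold change was 0.29 (adjusted p = 0.15), and 0.53 and called without WT control replicate 3. ITGB5 was called in WT alone, where it went from 51.1, 46.1 and 24.7 CPM to 62.1, 60.4 and 63.4 CPM, a log2 fold change of 0.59 (standard error 0.17, adjusted p = 0.0035). Without WT control replicate 3 it was 0.34 and called. In S181E, Y396E and RQ it was 0.17, 0.07 and 0.00, none of them called. With the parental-level TMM the calls of ITGA2 in RQ, ITGAV in Y396E and ITGB5 in WT were lost, at 0.25, 0.14 and 0.22.

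In all, 6 of 8 members rose with arsenite in WT, 5 in S181E, 6 in Y396E and 5 in RQ, and no member fell. Over all tested genes 35.4%, 33.3%, 31.3% and 32.4% rose in the same comparisons. The median log2 fold change of the members was 0.78 in WT, 0.63 in S181E, 0.88 in Y396E and 0.75 in RQ, against 0.03, -0.0026, -0.02 and -0.0045 over all tested genes. With the parental-level TMM the median over all genes shifted to -0.34 in WT, -0.43 in S181E, -0.45 in Y396E and -0.39 in RQ, and ITGB4, ITGA3, ITGA5 and ITGA6 were still called as higher in all 4 lines. The difference of the arsenite change between each mutant and WT was tested as an interaction. No integrin mRNA was called in any of these 3 tests, in which 0.389% (S181E), 2.85% (Y396E) and 0.0687% (RQ) of all genes were called. At an unadjusted p under 0.05 edgeR gave 1 member (ITGA3) in S181E, 2 (ITGA3 and ITGB5) in Y396E and 2 (ITGB4 and ITGB5) in RQ, and DESeq2 called 0 in each. For ITGB5 the interaction was -0.42 (adjusted p = 0.45), -0.52 (0.24) and -0.59 (0.44) on the log2 scale in S181E, Y396E and RQ, so the call in WT alone was not shown to differ between lines. For ITGB4 the interaction was 0.01, with a 95% interval from -0.29 to 0.32, in S181E, and 0.05, from -0.26 to 0.35, in Y396E. In RQ the ITGB4 interaction had an unadjusted edgeR p under 0.05 and was not called. ITGB4 rose there by 2.10 on the log2 scale, against 1.77 in WT.

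The parental libraries, 1 per treatment and without the bait, give the same ratio with no replicate check. For ITGB4 the parental level went from 271 to 903 CPM, a ratio of 3.34 (95% counting interval 3.02 to 3.69), and the mean WT level by a ratio of 3.44. ITGA6 had a parental ratio of 1.69 and a WT ratio of 1.98. For ITGA5 the parental level went the other way, from 106 to 63.0 CPM (ratio 0.594, interval 0.504 to 0.705), against a WT ratio of 2.69. ITGAV had parental and WT ratios of 0.532 and 1.23, and ITGB1 of 0.798 and 1.43. For ITGA3 the parental ratio was 1.14, against 2.27 in WT, but on total counts the parental level went from 857 to 710 CPM. ITGA2 had the highest parental ratio, 4.52 (interval 2.97 to 7.23), against 1.22 in WT. On total counts the ratio for ITGB4 was 2.42 in parental and 3.51 in WT. The parental levels of ITGA5, ITGAV and ITGB1 were lower after arsenite than before it on both scales, with total-count ratios of 0.431, 0.386 and 0.579.

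The study asked of these libraries how the S181E, Y396E and RQ mutants differ from WT in the RNA they bring down. In S181E control, 3 of 8 integrin mRNAs were called, 1 as lower and 2 as higher, where 20.8% of all genes were called, 8% as lower and 12.8% as higher. ITGA3 was 204, 185 and 194 CPM in WT and 115, 139 and 140 CPM in S181E, so all S181E libraries were lower. Its log2 fold change of -0.56 (standard error 0.10, adjusted p = 0.00031) remained called in all 10 other settings and without any single library of the 2 groups. ITGA6 went the other way, from 84.6, 69.8 and 87.8 CPM in WT to 110, 101 and 145 CPM in S181E, a log2 fold change of 0.57 (standard error 0.12, adjusted p = 0.0014). ITGB4 was 294, 262 and 286 CPM in WT and 315, 335 and 378 CPM in S181E, with a log2 fold change of 0.30 (standard error 0.10, adjusted p = 0.038). That call was lost in 5 of 10 other settings and in 4 of the 6 fits that left out 1 library (without WT control replicate 2 or 3 or S181E control replicate 2 or 3), with values from 0.22 to 0.36 in those 6. ITGA2 had a log2 fold change of 0.47 (adjusted p = 0.15), which became 1.03 and called without WT control replicate 3. Across all tested genes the S181E change in control had a Pearson r of -0.29 with the GC content of the transcript. Of the 3 called members, ITGA3 (lower) and ITGB4 (higher) are GC-rich and ITGA6 (higher) is GC-poor. The part of GC content in these values was not tested.

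In S181E arsenite, ITGA6 alone was called, as higher, against 7.53% of all genes called and 2.2% called as higher. Its levels were 158, 168 and 156 CPM in WT and 210, 218 and 222 CPM in S181E, which did not overlap, with a log2 fold change of 0.43 (standard error 0.11, adjusted p = 0.020). The call was lost without WT arsenite replicate 1 or 3 or S181E arsenite replicate 2 or 3, at values from 0.41 to 0.46 over the 6 fits. ITGB4 was 964, 913 and 1014 CPM in WT and 1162, 1238 and 1196 CPM in S181E, again with no overlap, and its log2 fold change of 0.31 was not called (adjusted p = 0.061). Libraries of the same number deviated together in this comparison, and with the replicate number as a block ITGB4 was called at the same value of 0.31 (adjusted p = 0.0071). Over all 16 other fits its adjusted p ran from 0.00066 to 0.87. ITGA3 stayed lower in all S181E libraries, at 356, 375 and 381 CPM against 421, 446 and 455 CPM, with a log2 fold change of -0.25 that was not called (adjusted p = 0.12). ITGA2 was 74.8, 72.5 and 69.4 CPM against 50.5, 45.2 and 52.5 CPM in WT, a log2 fold change of 0.54 that was not called either (adjusted p = 0.16).

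In Y396E control, ITGB4 and ITGA5 were higher, against 28.9% of all genes called and 16.2% called as higher. ITGB4 reached 392, 393 and 454 CPM, above all WT libraries (294, 262 and 286 CPM), with a log2 fold change of 0.57 (standard error 0.10, adjusted p = 0.00019). ITGA5 reached 39.8, 43.5 and 48.9 CPM, against 32.2, 32.6 and 19.3 CPM in WT, a log2 fold change of 0.66 (standard error 0.18, adjusted p = 0.0066). ITGA3 was lower in all Y396E libraries (147, 162 and 183 CPM) than in WT (204, 185 and 194 CPM), with a log2 fold change of -0.23 that was not called (adjusted p = 0.079), and with the parental-level TMM it was called at -0.39. ITGA6 was higher in all Y396E libraries (95.3, 96.4 and 96.4 CPM) than in WT, but its log2 fold change of 0.26 was not called (adjusted p = 0.092).

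In Y396E arsenite 3 members were higher, ITGB4, ITGA5 and ITGA6, where 32.5% of all genes were called and 13.1% were called as higher. ITGB4 stood at 1349, 1463 and 1533 CPM, against 964, 913 and 1014 CPM in WT, the highest integrin levels of any group. Its log2 fold change of 0.62 (standard error 0.10, adjusted p = 6.4e-05) remained called in all 10 other settings, as did that in control. ITGA5 stood at 98.9, 114 and 113 CPM against 71.0, 86.3 and 69.1 CPM, a log2 fold change of 0.56 (standard error 0.17, adjusted p = 0.014). That call was lost without WT arsenite replicate 1 or 3 or Y396E arsenite replicate 2. ITGA6 stood at 227, 206 and 223 CPM against 158, 168 and 156 CPM, a log2 fold change of 0.48 (standard error 0.11, adjusted p = 0.0031). With the parental-level TMM, which moved the median over all genes to -0.21, the ITGA5 and ITGA6 calls were lost at 0.35 and 0.27, ITGB4 was called at 0.41 and ITGB5 was called as lower at -0.46. Across all tested genes the Y396E change in arsenite had a Pearson r of 0.38 with the GC content of the transcript. Of the GC-rich members ITGB4 and ITGA5 were called as higher, and ITGA3 and ITGB5 were not called. Of the GC-poor members ITGA6 was called as higher, and ITGA2, ITGAV and ITGB1 were not called. The part of GC content in these values was not tested.

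In RQ no integrin mRNA was called in control, where 6.34% of all genes were, or in arsenite, where 0.504% were. At an unadjusted p under 0.05 edgeR gave 1 member in control (ITGB5) and 2 in arsenite (ITGA3 and ITGB4), and DESeq2 called 0 under both. ITGB5 came closest in control, at 61.9, 55.3 and 51.9 CPM against 51.1, 46.1 and 24.7 CPM in WT, with a log2 fold change of 0.47 (95% interval 0.11 to 0.82, adjusted p = 0.10). Without WT control replicate 1 it was 0.68 and called. For ITGB4 the RQ difference was -0.10 in control (95% interval -0.31 to 0.12) and 0.23 in arsenite (-0.0028 to 0.47), and for ITGA6 it was 0.15 (-0.10 to 0.40) and 0.04 (-0.24 to 0.31). These intervals use fewer degrees of freedom than the test and are wider, so the interval for ITGB4 in arsenite includes 0 although its unadjusted p was under 0.05. For ITGB4 the upper ends lay below its Y396E values in both treatments. For ITGA6 they lay below its called values in S181E and Y396E. In simulated counts for the RQ comparison in arsenite, 30.8% of genes changed by 0.5 on the log2 scale were called and 87.7% of those changed by 1. These shares are over randomly drawn genes and do not give the power for a member.

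**Figure D3:**
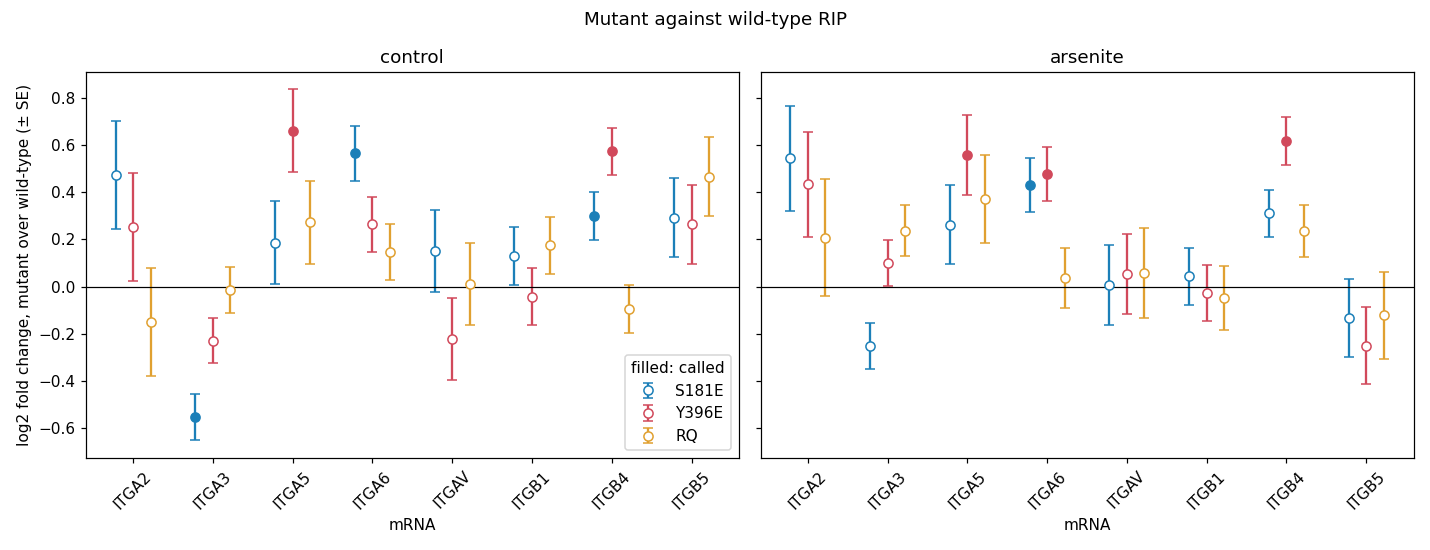
Difference of each mutant from WT for the integrin mRNAs (vertical axis, edgeR log2 fold change with its standard error), in control on the left and arsenite on the right. Filled dots were called. ITGA3 is the single called decrease (S181E, control), and no RQ value is filled.

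ITGA2, ITGAV, ITGB1 and ITGB5 were called in no mutant under either treatment. Across the 6 comparisons with WT the log2 fold changes of ITGAV and ITGB1 lay between -0.22 and 0.15 and between -0.05 and 0.18. On total counts, which moved the median over all genes to 0.22, ITGB1 was called in S181E control at 0.29.

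The lists of mRNAs that act with integrins were read in the same fits. Of 10 tested matrix mRNAs, which encode laminins, perlecan and other ligands, 8 rose with arsenite in WT, 10 in S181E, 10 in Y396E and 9 in RQ, and none fell. In WT 35.4% of all tested genes rose and 31.8% fell. LAMB2, a laminin chain, rose by 2.05 in WT (standard error 0.25, adjusted p = 1.7e-07) and HSPG2, which encodes perlecan, by 1.46 (standard error 0.15, adjusted p = 6.8e-09) on the log2 scale. Of 23 tested adaptor mRNAs, 9 rose and 4 fell in WT, with ACTN1, an actin crosslinker, at 1.48 and FERMT2, which activates integrins, at 1.61. CRK, a signalling adaptor, fell by 1.10 and ITGB1BP1, which binds the ITGB1 tail, fell by 0.81 on the log2 scale. Of 25 other tested surface mRNAs, 14 rose and 5 fell in WT, with EPCAM at 1.17, CD44, a hyaluronan receptor, at 0.98 and SDC4, a heparan sulfate proteoglycan, at -1.14. The median change in WT was 1.16 for matrix, 0.43 for adaptor and 0.39 for surface mRNAs.

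Between S181E or Y396E and WT the adaptor and surface lists moved in both directions. Of the 10 tested matrix mRNAs none was called in S181E. In Y396E 1 of them was higher in control and 3 in arsenite, and none was lower. Of all tested genes 16.2% were called as higher in Y396E control and 13.1% in Y396E arsenite. In Y396E control 7 adaptor mRNAs were higher and 3 lower of 23, where 16.2% of all tested genes were higher and 12.7% lower. In S181E control 6 were higher and 3 lower, where 12.8% of all tested genes were higher and 8% lower. TNS4, a tensin that binds integrin tails, was higher in S181E control (0.95, adjusted p = 8.3e-06), S181E arsenite (0.98, adjusted p = 6.5e-06), Y396E control (1.14, adjusted p = 4.0e-07) and Y396E arsenite (1.04, adjusted p = 1.1e-06). PTK2, the focal adhesion kinase, was lower in the same comparisons, with log2 fold changes of -0.33, -0.49, -0.38 and -0.54. In Y396E arsenite LAMB3, which encodes a chain of the laminin that ITGA6 with ITGB4 binds, was higher by 1.22 (standard error 0.29, adjusted p = 0.0023). These comparisons within a treatment share the WT libraries.

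Across the 23 mCherry libraries, the mRNA most like ITGB4 in its log2 CPM was XRCC5 (Pearson r = 0.99), and the one most like ITGA3 was CPSF1 (0.99), with NFKB2 for ITGA5 (0.98) and MSN for ITGA6 (0.96). For ITGA2 it was GPD1L (0.86) and for ITGB5 USP13 (0.86). ITGAV was most like another member, ITGB1 (0.80). Among the members, ITGB4 followed ITGA5 (0.96) and its partner ITGA6 (0.95), whereas ITGAV and its partner ITGB5 had an r of 0.07. These values describe libraries that share treatments and lines. Within the 12 control libraries the pairs of members ranged from -0.63, for ITGA3 with ITGA6, to 0.78, for ITGAV with ITGB1.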

How the data were processed

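The authors removed ribosomal RNA with riboPOOL probes, made directional libraries, aligned reads with STAR 2.7.11b to hg38 with GENCODE annotation, allowing 2 mismatches, and counted reads per gene with strand-specific featureCounts (Subread 2.0.6). The values the authors deposited are raw counts for 63086 genes in each of 25 libraries. The counting used strand, and no other gene that shares exon bases with a member had more than 120 counts in a library. Symbols came from GENCODE 44, in which 62541 identifiers were found.

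Scaling by TMM, CPM and all tests used edgeR 4.0.16 under R 4.3.3, with DESeq2 1.42.0 as an alternative, and tables and figures were made with Python 3.11.15 and pandas 2.3.3. Following the authors' methods, protein-coding genes above 10 CPM in at least 11.5 of 23 mCherry libraries (8734 genes) were fitted with 8 groups and no covariates by glmQLFit and tested by glmQLFTest with Benjamini-Hochberg adjustment. Calls needed an adjusted p under 0.05 together with a difference of over 20%. Ratios to the parental library had no test, since each treatment had 1, and TMM was then taken over all 25 libraries. Intervals of those ratios and floors (3 counts) cover counting error only. Labels name replicates without saying what they are, so p-values measure the spread between these libraries. Same-numbered libraries deviated together, with correlations from 0.289 to 0.400, in S181E against WT in arsenite, from the data and not from the labels. In RQ against WT in arsenite the correlations ran from 0.148 to 0.216 over 2 pairs.

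Members and lists were chosen with earlier results of these data known. Named genes were the 8 members, up to 2 highest and 2 lowest called genes without overlap per list and comparison, of which the text gives a part, IGF2BP1 and ACTB as checks, and the most similar mRNA of each member, which is not reported here for ITGB1. Alternatives covered scaling, test, gene filter, model, replicate block and each library left out. The test was checked on simulated counts for 8734 genes. In S181E against WT in control, the calls recovered 38.2% of genes changed by 0.5 on the log2 scale and 94.3% at a change of 1, and 9 of the 171 calls were false.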

Additional observations from a re-analysis of the deposited data

How the results depend on the processing

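Of the settings tried for the 8 integrin mRNAs over all comparisons, 1703 values kept their side of the threshold, 45 gained a call, 35 lost one and 1 reversed. The reversed value was ITGB1 in S181E after arsenite with the parental-level TMM (-0.021). A change of sign was counted as reversed only where the main fit or the other setting made a call, so the 1703 can hold uncalled values that changed sign. In S181E control, 3 calls became 5 on total counts and 1 when just the compared groups were fitted. In S181E arsenite, 1 call became 3 on total counts, 0 with the parental-level TMM, 2 with DESeq2's Wald test, 0 with glmTreat, 2 over all biotypes, 4 with only the groups compared and 2 with the replicate block. In Y396E control, 2 calls became 5 on total counts and 1 with only the groups compared. In Y396E arsenite, 3 calls became 5 on total counts, 1 with glmTreat and 5 with only the groups compared. In RQ arsenite, 0 calls became 1 with only the groups compared. Members at least 4-fold over parental in WT control went from 1 to 2 at 2-fold and to 0 with the parental arsenite library as background. Total counts moved the median over all genes to between 0.07 and 0.32 in the comparisons with WT, and only the groups compared leaves fewer libraries to estimate the spread. For the other changes the cause was not tested.

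Leaving out 1 library gave 2 to 4 calls in S181E control, 0 to 1 in S181E arsenite, 2 to 3 in Y396E control, 2 to 3 in Y396E arsenite, 0 to 1 in RQ control and 0 to 0 in RQ arsenite. For arsenite against control it gave 6 to 8 calls in WT, 5 to 6 in S181E, 6 to 7 in Y396E and 4 to 5 in RQ. It gave 0 to 0 for each interaction, 1 to 1 for members 4-fold over parental in control and 0 to 0 in arsenite. In RQ against WT in arsenite same-numbered libraries also deviated together, with correlations from 0.148 to 0.216 over 2 pairs, and the replicate block gave no call there. Outside S181E and RQ against WT in arsenite the replicate numbers could not be taken to pair libraries. In those other comparisons the replicate block left 3 calls in S181E control and 6 in WT after arsenite. It gave 3 in Y396E control, 7 in Y396E after arsenite and 6 in RQ after arsenite. The depth of the parental control library, 1238013 counts, limits the ratios in control.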
